A study of Mus musculus with 10 samples.

Results

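Dentate granule cell genes are described here through 7 genes known to mark the granule neurons of the dentate gyrus, Prox1, C1ql2, Dsp, Calb1, Tdo2, Stxbp6 and Npnt. They were found by gene name among the non-control probes of the arrays, which gave 15 of 41174 probes. Gene expression was measured in hippocampus of adult ICR mice, an outbred stock, with 5 samples per group, each on an array of its own. In the high estradiol group (HE), the pregnant dams had been given estradiol valerate, an esterified form of estradiol, by mouth, dissolved in corn oil. The dose was 100 µg/kg/day, over embryonic days E5.5 until E11.5. Dams of the control group (NC) received corn oil alone. All samples were labelled male. The litter of each sample is not given, nor whether each came from 1 animal, so p-values speak only to the variation among these 10 samples.

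Granule neurons receive the main cortical input to the hippocampus and send mossy fibres to area CA3. They are born into adulthood, and Prox1, a homeodomain transcription factor, sets and keeps their identity. Calb1 (calbindin, a calcium-binding protein) appears as they mature. C1ql2 is released at mossy fibre synapses, where it organises receptors. In brain, Tdo2 (tryptophan dioxygenase, otherwise a liver enzyme) and Dsp (desmoplakin, which ties cell junctions to intermediate filaments) are known chiefly as granule cell transcripts. Stxbp6 (amisyn) binds SNARE proteins of vesicle fusion, and Npnt (nephronectin) is a matrix protein that binds integrins.

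Signals are given as log2 of the processed spot signal minus the 75th percentile of all probes on that array. The 75th percentile was 898.0 to 1277.0 signal units, and probes well above background made up 70.3% to 78.9%. The precision is limited by the number of arrays, 5 per group. HE 3 to HE 5 shared slide 3, HE 1, HE 2 and NC 5 shared slide 2, and NC 1 to NC 4 shared slide 1. On 7 arrays (HE 1 to HE 3 and NC 1 to NC 4), high Xist and low Ddx3y did not match the male label. Markers of neighbouring and other tissue also differed between arrays. The mean signal of 17 thalamus and habenula genes was -1.499 to -0.121 in HE and -0.222 to 1.101 in NC, and 11 of these genes fell in HE. Shox2, among the 11, was well above background on only 1 HE array. Alb, a liver gene, was -8.769 to -5.688 in HE, against -7.912 and -4.799 on NC 3 and NC 5 and -0.202 to 0.502 on NC 1, NC 2 and NC 4.

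Of the 15 probes, 12 exceeded background clearly on 3 or more arrays of a group and were tested, and every gene kept at least 1. The 3 others were 2 probes of Dsp and 1 of Tdo2. Groups were compared with limma over all 30981 such probes, with Benjamini-Hochberg adjustment and a threshold of 0.05. Calb1 was higher in HE, Prox1 was lower in HE on 2 of 3 probes, Npnt was higher in HE on 1 of 3 probes, and Stxbp6, C1ql2, Tdo2 and Dsp did not pass. The members therefore gave 4 called probes of 12, where 23.1% of all tested probes were called, 7.7% as higher and 15.5% as lower in HE. With 1 probe per gene, the one with the highest mean, 2 of 7 members were called, where 21.4% of all 20069 genes were, 6.79% as higher and 14.6% as lower. With so few members these shares are not far apart. The median log2 difference of the 7 was -0.0814, against -0.0553 over all genes. In whole tissue, fewer granule cells and less RNA per cell cannot be told apart.

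**Figure D1:**
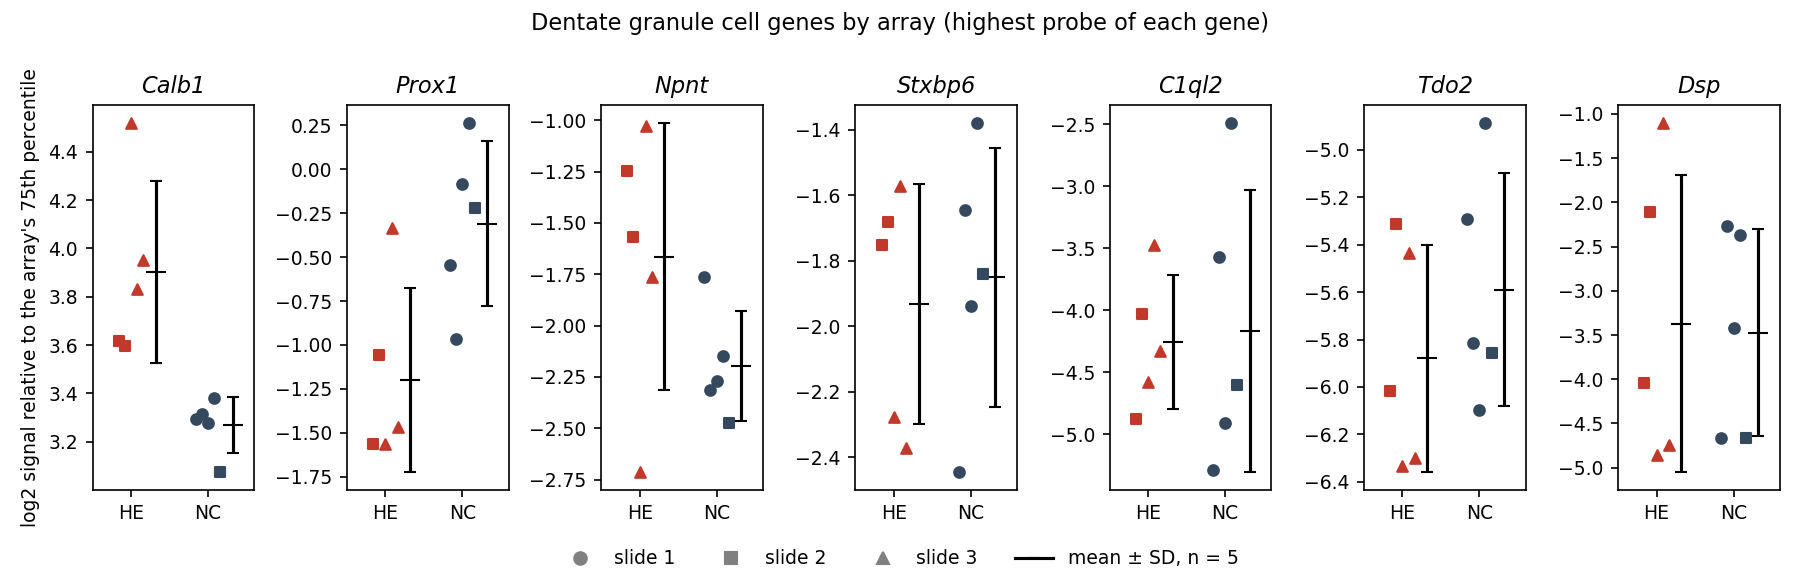
Signal of the 7 genes on each array, as log2 relative to the array's 75th percentile, for the probe of each gene with the highest mean, with HE left of NC in each panel. Each panel has its own axis, symbols mark the slide, and bars are mean ± SD (n = 5). The Calb1 values of HE lie above all those of NC, from 3.595 upwards against 3.381 and below, and those of the other 6 genes overlap.

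Calb1 was read by 1 probe printed in 10 spots (chromosome 4, 15832543 to 15832602 on mm9, the build of the files). Its signal was 3.616, 3.595, 4.52, 3.834 and 3.952 on HE 1 to HE 5, against 3.293, 3.316, 3.279, 3.381 and 3.074 on NC 1 to NC 5. The groups did not overlap: the lowest HE array lay 0.214 above the highest NC array, which among all tested probes held in this direction for 6.22%. HE 3 was the highest array and the NC arrays lay close together. Calb1 averaged 3.903 ± 0.376 in HE and 3.269 ± 0.116 in NC (SD, n = 5 each), a rise of 0.635 ± 0.169 SE or 1.55-fold (limma adjusted p = 0.0258). The direction held in all 27 alternatives, with values of 0.381 to 0.86, and 19 of them passed. The call was lost without HE 5, NC 2 or NC 5 (0.622, 0.646 and 0.586), with slide as a fixed block (0.531), with the mean of the thalamus genes as a covariate (0.381), on the 7 arrays with high Xist alone (0.593) and without NC 1, NC 2 and NC 4 (0.727). On slide 2 alone, which has a single NC array and where no probe of any gene passed, the value was 0.531.

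Calbindin is also made by CA1 pyramidal cells, by a class of interneurons and by Purkinje cells. Of 11 CA1 genes, 5 rose in HE and none fell, with a median log2 difference of 0.667. Man1a, a mannosidase, rose by 0.852, Pou3f1, a POU transcription factor, by 1.359, and Itpka, an inositol phosphate kinase of dendritic spines, by 1.465. The mean signal of these 11 genes was 0.692 to 1.032 in HE and -0.479 to 0.545 in NC, so the groups did not overlap. On HE 3, where Calb1 was highest, Pou3f1 was also the highest of all arrays (4.665), and on NC 5, where Calb1 was lowest, Pou3f1 was lowest (1.927). Of 12 interneuron genes, 5 rose and 1 fell (median 0.709), and their mean was 2.381 to 2.53 in HE and 1.594 to 2.163 in NC. Sst, the somatostatin gene, rose by 0.897, and Pvalb, the parvalbumin gene, fell by 0.75. Of 5 Purkinje cell genes, 1 rose (Itpr1, a calcium release channel also abundant in CA1, by 0.735), and their means overlapped (1.921 to 2.127 in HE and 1.876 to 2.421 in NC). The part of these cell types in the Calb1 difference was not tested.

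Among 9 other measured calcium-binding proteins of the EF-hand class, Necab1 rose by 0.493, Pvalb fell as above, and 7 did not pass. Hpca, the hippocalcin of pyramidal cells, had 4.108 ± 0.44 in HE and 2.88 ± 0.906 in NC without passing (adjusted p = 0.0515).

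Prox1 was read by 3 probes. All 3 were lower on average in HE, and 2 passed. The probe nearest the 3′ end, which represents the gene (chromosome 1, 191942646 to 191942705), was -1.566, -1.058, -1.566, -0.337 and -1.467 on HE 1 to HE 5, against -0.542, -0.965, -0.083, 0.265 and -0.218 on NC 1 to NC 5. It averaged -1.199 ± 0.525 in HE and -0.309 ± 0.467 in NC (SD, n = 5 each), a fall of 0.89 ± 0.286 SE (limma adjusted p = 0.0475). Every HE array except HE 4 lay below every NC array.

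The second probe that passed joins exons that lie apart, since its 60 bases cover 7058 bases of genome (chr1:191977369-191984426, minus strand, mm9). It is shown because it reads spliced transcript at the other end of the probed stretch:
Prox1 A_51_P369058: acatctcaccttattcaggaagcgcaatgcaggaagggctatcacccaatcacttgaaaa
Its signal was -5.246, -4.561, -5.707, -3.996 and -5.266 on HE 1 to HE 5, against -4.013, -4.116, -4.081, -3.498 and -3.967 on NC 1 to NC 5. The NC arrays were again the higher ones, with HE 4 among them. The mean was -4.955 ± 0.675 in HE and -3.935 ± 0.251 in NC, a log2 difference of -1.02 ± 0.292 SE (0.493-fold, adjusted p = 0.0328). The third probe had -4.961 ± 0.599 in HE and -4.362 ± 0.391 in NC and did not pass (log2 difference -0.599, adjusted p = 0.156).

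HE 4 was the highest HE array on all 3 Prox1 probes, and without it all 3 passed, with log2 differences of -1.106, -1.26 and -0.818. With other single arrays left out, the first probe passed without NC 2 (-1.054) and lost its call without any of the remaining 8 (-0.949 to -0.747). The second lost its call without HE 1, HE 3, HE 5, NC 2, NC 4 or NC 5 (-1.065 to -0.832). The first probe passed in 8 of 27 alternatives and the second in 12 of 25. Neither passed after quantile normalization (-0.836 and -0.719) or in the deposited value table (-0.838 and -0.719). The first also lost its call with array median scaling (-0.678), without the filter on dim probes (adjusted p = 0.051), with 1 probe per gene (adjusted p = 0.0526) and with the mean of the gene's probes (-0.837). With slide as a fixed block the first 2 probes were -1.094 and -0.936 and did not pass. Nor did they without NC 1, NC 2 and NC 4 (-1.049 and -0.931) or on the 7 arrays with high Xist (-1.065 and -1.244).

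Prox1 is also expressed in thalamic neurons, lymphatic endothelium and liver. Of the 17 thalamus and habenula genes, 11 fell and 6 did not pass, and of those 6, Six3 and Tac2 had higher means in HE (log2 differences 0.805 and 0.422). Shox2, among the 11, was well above background on 1 HE array and 5 NC arrays. It was thus tested only through NC, so that the filter favoured its direction, and it is part of the mean of the list. Among those that fell, Tcf7l2, a thalamic transcription factor, was -0.348, -0.028, -0.135, 1.766 and -0.07 on HE 1 to HE 5, against 2.389, 2.847, 2.748, 2.952 and 3.351 on NC 1 to NC 5. HE 4 was thus the highest HE array for Tcf7l2 as it was for Prox1. With the mean of the thalamus list as a covariate the 2 called probes of Prox1 had log2 differences of 0.193 and -0.167, and neither passed. In that fit 1 of all 30981 probes passed. The covariate itself differed between the groups (values above), so the fit cannot tell it from the group. Of 9 measured liver genes, 7 fell in HE and 2 did not pass (median -4.08). Of the 7, Tat was well above background on all arrays and fell by 0.877. The others were well above background on at most 2 HE arrays and were tested only through NC. Their direction, and with it the median, was therefore favoured by the filter. The Prox1 differences without NC 1, NC 2 and NC 4, the 3 arrays of highest Alb, are given above and did not pass. Only NC 3 and NC 5 stand for NC in that fit. The part of thalamus and liver in the Prox1 difference was not tested.

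**Figure D2:**
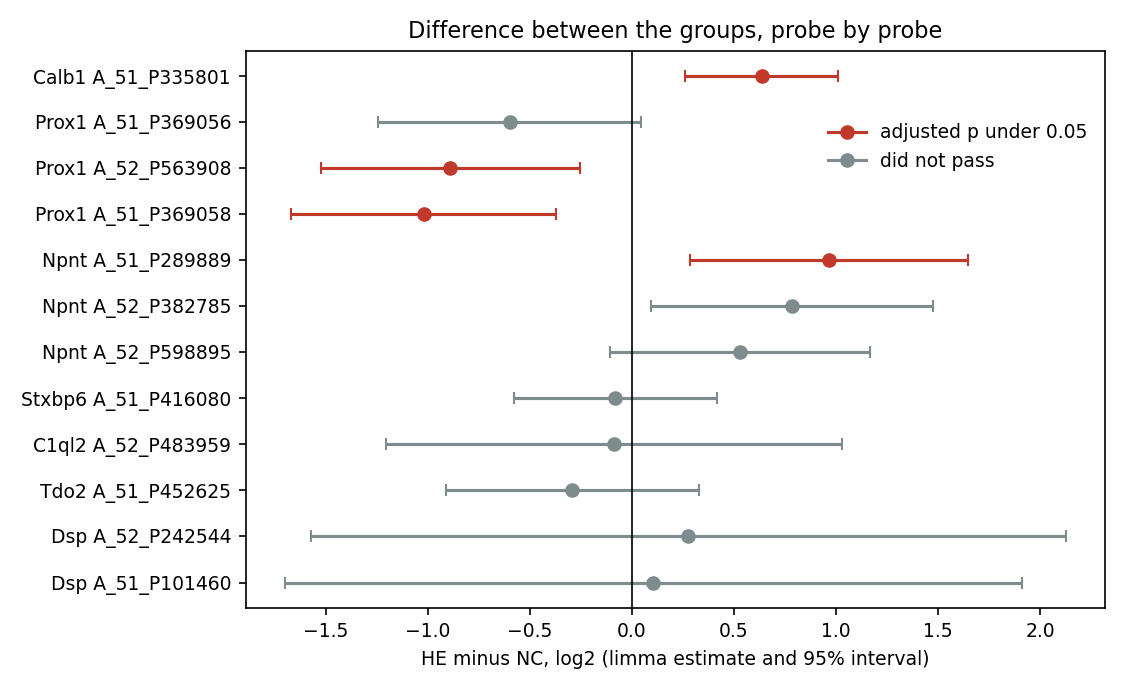
Log2 difference of HE minus NC for the 12 tested probes, with its 95% interval from limma, in red where the adjusted p was under 0.05. The 3 Prox1 probes lie below 0 and the 3 Npnt probes above it, and both Dsp intervals reach from under -1.5 to over 1.9.

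Genes that work with Prox1 outside the dentate gyrus, and genes of Notch signalling, which Prox1 is known to oppose, moved in both directions: 2 of 12 rose and 3 fell (median -0.177). Nr2f2, a nuclear receptor that binds Prox1 in lymphatic endothelium, was -0.323 ± 0.366 in HE and 0.937 ± 0.28 in NC (adjusted p = 0.00653), and Nr5a2, a nuclear receptor of liver, fell by 1.844. Hey1, a Notch target, rose by 0.438, and all 5 HE arrays lay above the NC arrays, as for 6.22% of all tested probes. Its relative Hey2 went the other way and fell by 0.536 (limma adjusted p = 0.0448).

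Npnt was read by 3 probes, all with higher means in HE, and 1 passed. Of these, 2 share 19 bases at their ends, given in capitals, so that they are not independent readings:
Npnt A_51_P289889: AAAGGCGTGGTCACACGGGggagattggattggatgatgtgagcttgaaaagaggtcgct
Npnt A_52_P382785: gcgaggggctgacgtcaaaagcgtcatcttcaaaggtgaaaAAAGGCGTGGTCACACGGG
The first (chr3:132547399-132547458, minus strand, mm9) had -2.891, -3.217, -4.163, -2.664 and -3.524 on HE 1 to HE 5, against -4.047, -4.823, -4.171, -3.617 and -4.624 on NC 1 to NC 5. All HE arrays except HE 3 lay above all NC arrays. It rose by 0.964 ± 0.306 SE, 1.95-fold (adjusted p = 0.0459).

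The overlapping probe (chr3:132547440-132548741, minus strand, mm9) averaged -3.828 ± 0.691 in HE and -4.613 ± 0.339 in NC (adjusted p = 0.092). The third, further towards the end of the gene (chromosome 3, 132546719 to 132546778), represents the gene. It was -1.246, -1.568, -2.714, -1.028 and -1.765 on HE 1 to HE 5, against -1.763, -2.316, -2.272, -2.15 and -2.476 on NC 1 to NC 5. HE 3 was the lowest of all 10 arrays here, while HE 1, HE 2 and HE 4 were the highest. The third probe differed by 0.531 ± 0.287 SE without passing (adjusted p = 0.199), but it passed without HE 3 (0.793).

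The call of the first probe was kept without HE 3 or NC 4 and lost without any other single array (0.808 to 1.023). It passed in 9 of 25 alternatives. It was also lost with slide as a fixed block or on slide 2 alone (1.57 in both), with the thalamic mean (1.591) or the Xist pattern (0.962) as a covariate, without the filter on dim probes (adjusted p = 0.0509), on the high Xist arrays (0.741), without NC 1, NC 2 and NC 4 (1.105), and under normexp background correction, where the value was -0.358, or 0.06 above the median of all probes under that setting. None of 6 measured genes of the nephronectin receptor and its matrix partners passed. Among them Itgb1, an integrin subunit, had -1.28 ± 0.084 in HE and -0.975 ± 0.313 in NC (adjusted p = 0.147).

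Stxbp6 was read by 1 probe (chromosome 12, 45956568 to 45956627). Its signal was -1.753, -1.68, -2.278, -1.572 and -2.371 on HE 1 to HE 5, against -2.446, -1.645, -1.939, -1.378 and -1.84 on NC 1 to NC 5. High and low arrays occurred in both groups. The log2 difference was -0.081 with a 95% interval of -0.578 to 0.415 (adjusted p = 0.819). Among SNARE proteins and their binding partners, the plasma membrane syntaxin Stx4a fell by 0.342 (adjusted p = 0.0247). All 5 HE arrays lay below all 5 NC arrays, as for 11.2% of all tested probes.

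C1ql2 was read by 1 probe (chr1:122238262-122238321, plus strand, mm9). It is shown because this single 60-base oligo carries the whole reading of the gene:
C1ql2 A_52_P483959: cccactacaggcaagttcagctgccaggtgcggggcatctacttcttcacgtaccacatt
Its signal was -4.88, -4.03, -4.584, -3.473 and -4.33 on HE 1 to HE 5, against -5.287, -3.568, -4.907, -2.488 and -4.604 on NC 1 to NC 5. NC 4 was the highest array of all and NC 1 the lowest, so that the NC arrays spanned the HE arrays. The log2 difference was -0.089, with a 95% interval of -1.205 to 1.027 (adjusted p = 0.916). This interval also allows a change of about the size seen for Prox1. Of 11 relatives and receptors of C1ql2, 1 passed: Cbln1, a cerebellin that is also made in thalamus, fell by 1.394. C1ql3, its partner at mossy fibre synapses, had 2.283 ± 0.473 in HE and 1.788 ± 0.499 in NC without passing (adjusted p = 0.219).

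Tdo2 was read by 2 probes, each covering over 60 bases of genome and so joining exons. They are shown because they lie on separate stretches and parted most on NC 3:
Tdo2 A_51_P452625: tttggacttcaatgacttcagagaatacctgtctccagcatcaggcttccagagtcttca
Tdo2 A_52_P404341: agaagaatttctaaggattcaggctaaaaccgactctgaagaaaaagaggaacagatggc
The first (chr3:81772155-81773432, minus strand, mm9) was -6.019, -5.314, -6.332, -5.435 and -6.302 on HE 1 to HE 5, against -5.292, -5.813, -6.096, -4.885 and -5.856 on NC 1 to NC 5. The groups overlapped, with HE 2, HE 4, NC 1 and NC 4 highest. The log2 difference was -0.292, with a 95% interval of -0.912 to 0.329 (adjusted p = 0.473).

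The second Tdo2 probe (chr3:81767918-81770928, minus strand, mm9) was well above background on 2 of 5 arrays in each group and was not tested. It was -8.534, -6.635, -8.776, -6.005 and -8.198 on HE 1 to HE 5, against -8.635, -8.346, -2.101, -5.713 and -8.606 on NC 1 to NC 5. NC 3 stood far above every other array, although the first probe was lowest in NC on that array. NC 4, HE 4 and HE 2 came next, and they were high on the first probe as well. NC 1 was high on the first probe alone. Alb was low on NC 3 (-7.912). On the first probe, the highest NC arrays were NC 4 and NC 1, where Alb was high (-0.202 and 0.502). On NC 2, Alb was high as well (0.476) but the first probe read -5.813. On HE 4, Alb was lowest of all arrays (-8.769) but the first probe read -5.435. Without NC 1, NC 2 and NC 4 the log2 difference of the first probe was 0.096. The part of liver transcripts in the Tdo2 values was not tested. None of 9 measured genes of the kynurenine pathway, through which Tdo2 feeds tryptophan, or of serotonin synthesis (Tph2) passed. Among them Qprt, which consumes the pathway's quinolinic acid, had -4.319 ± 0.124 in HE and -3.751 ± 0.517 in NC (adjusted p = 0.0865).

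Dsp was read by 4 probes along chromosome 13, of which the 2 nearest the end of the gene gave signal. The other 2 were not well above background on any of the 10 arrays. The 2 silent probes and 1 of the others are shown because the reading of the gene depends on which stretch is probed:
Dsp A_51_P201884, silent (chr13:38285480-38286579, plus strand, mm9): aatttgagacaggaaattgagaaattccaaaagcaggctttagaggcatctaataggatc
Dsp A_52_P549815, silent (chr13:38287658-38287717, plus strand, mm9): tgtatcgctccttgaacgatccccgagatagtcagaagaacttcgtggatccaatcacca
Dsp A_52_P242544, measured (chr13:38289734-38289793, plus strand, mm9): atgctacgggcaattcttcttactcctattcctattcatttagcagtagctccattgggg
The measured probe shown here cleared background on 4 of 5 HE arrays and on all 5 NC arrays. It read -5.472, -3.647, -7.093, -2.587 and -5.9 on HE 1 to HE 5, against -5.936, -5.441, -5.004, -3.5 and -6.202 on NC 1 to NC 5.

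The Dsp probe that represents the gene (chromosome 13, 38290121 to 38290180) was -4.041, -2.111, -4.856, -1.1 and -4.745 on HE 1 to HE 5, against -4.66, -2.268, -3.42, -2.368 and -4.659 on NC 1 to NC 5. Among the probes that represent the 7 genes, this one had the widest spread within each group (SD 1.68 in HE and 1.172 in NC), and HE 2 and HE 4 were high on both measured probes. The log2 differences of these 2 probes were 0.104 and 0.277, with 95% intervals of -1.701 to 1.91 and -1.571 to 2.125 (adjusted p = 0.94 and 0.836). These intervals do not separate the groups from equality or from changes of over 1 in either direction. Of 10 measured desmosomal and plakin genes, 3 rose and none fell. Pkp1 rose by 1.531, Plec by 0.813 and Jup (plakoglobin) by 0.469. Pkp1 encodes a plakophilin, which binds Dsp in desmosomes of skin.

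**Figure D3:**
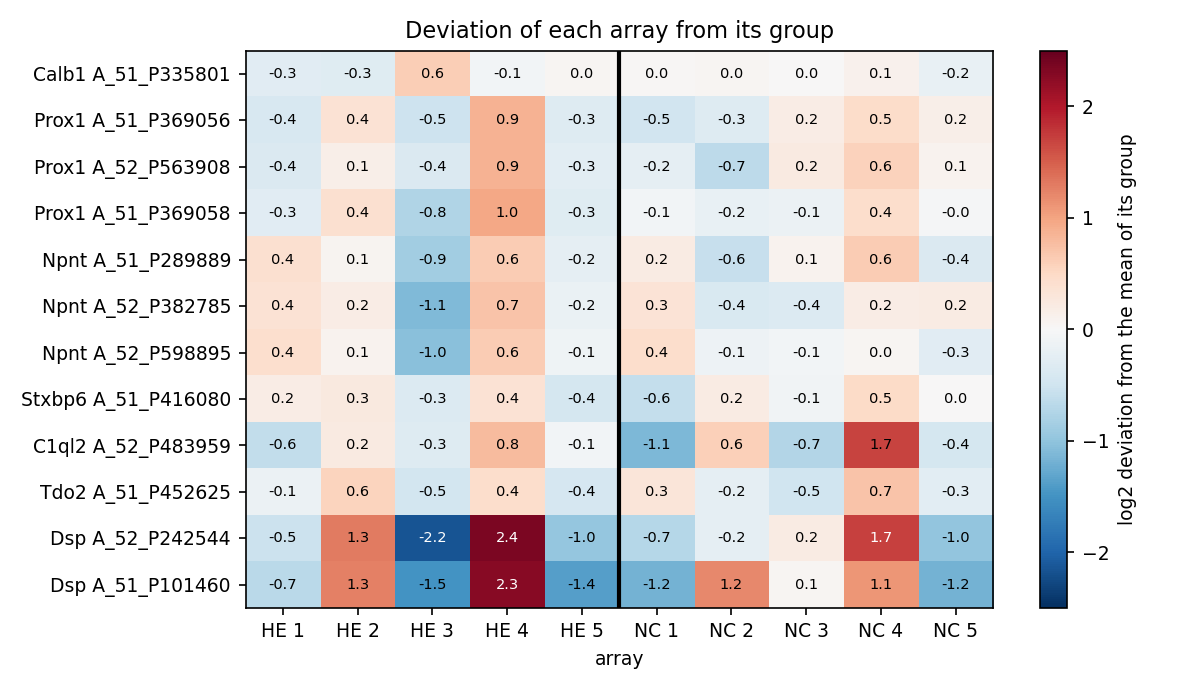
Deviation of each array from the mean of its group, in log2, for the 12 tested probes, with HE arrays left of NC arrays. HE 4 and NC 4 are high for most probes outside Calb1, HE 3 is low, and the widest deviations are those of the Dsp probes.

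The members differed between arrays of 1 group in a partly shared way, described after the values were seen. Taking 1 probe per gene, HE 4 was the highest HE array for 5 of 7 members (Prox1, Stxbp6, Npnt, Dsp and C1ql2). NC 4 was the highest NC array for 5 of 7 (Calb1, Prox1, Stxbp6, C1ql2 and Tdo2). Over all genes, HE 4 was highest in HE for 21% and NC 4 highest in NC for 18.4%. HE 3 was the lowest HE array for 4 of 7 members, against 36.8% of all genes.

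Among the other granule cell genes, HE 4 and NC 4 were also the arrays most often highest: HE 4 was the highest HE array for 8 of 17 and NC 4 the highest NC array for 8 of 17. Others of the 17 went the other way. HE 4 was the lowest HE array for 3, NC 4 the lowest NC array for 2, and HE 3 the highest HE array for 6. Lct, the lactase gene, a marker of granule cells in mouse, was -3.08, -0.628, -3.039, 1.025 and -2.342 on HE 1 to HE 5, against -2.389, -1.816, -2.626, -0.601 and -2.746 on NC 1 to NC 5. It was highest on HE 4, NC 4 and HE 2, arrays on which Dsp was high too. Dsp was likewise high on NC 2 (-2.268), where Lct read -1.816. Il16, an interleukin gene, read -2.822, -1.223, -2.774, -1.354 and -2.817 on HE 1 to HE 5, against -2.445, -2.539, -2.709, -0.704 and -2.73 on NC 1 to NC 5. For Il16, too, HE 4, NC 4 and HE 2 stood above the other 7 arrays. Lct and Il16 were singled out after their values were seen.

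Likeness between profiles was measured as the root-mean-square difference of the deviations from the group means, scaled to unit SD, over the 10 arrays. It is 0 for identical profiles and largest for opposite ones. Between members the closest pairs were Stxbp6 with Dsp (0.613), Stxbp6 with C1ql2 (0.718) and Dsp with C1ql2 (0.744). Calb1 was apart from all the others, at 1.372 (with C1ql2) to 1.847 (with Npnt). On HE 3, Calb1 was highest in HE while Prox1, Npnt, Dsp and Tdo2 were lowest. On NC 4, it was highest in NC together with Prox1, Stxbp6, C1ql2 and Tdo2. Among 15380 other genes, those closest to Dsp were Rras2, Chrna1 and Gmps (0.274 to 0.43), to C1ql2 Slitrk4, Gatd1 and Cyb5r1 (0.242 to 0.307), and to Stxbp6 Ctbp2, Oxsm and Afap1l2 (0.27 to 0.302). Those closest to Npnt were Cux2, Kcnab3 and Lmna (0.257 to 0.312), and to Tdo2 Arhgap39, Tmod2 and Maf (0.279 to 0.363). Closest to Prox1 were Dck, Mindy3 and Tanc1 (0.371 to 0.384), and to Calb1 Zfp3, Hey1 and Gdf10 (0.329 to 0.356). These are the smallest of many differences over 10 arrays and share the arrays' own variation.

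**Figure D4:**
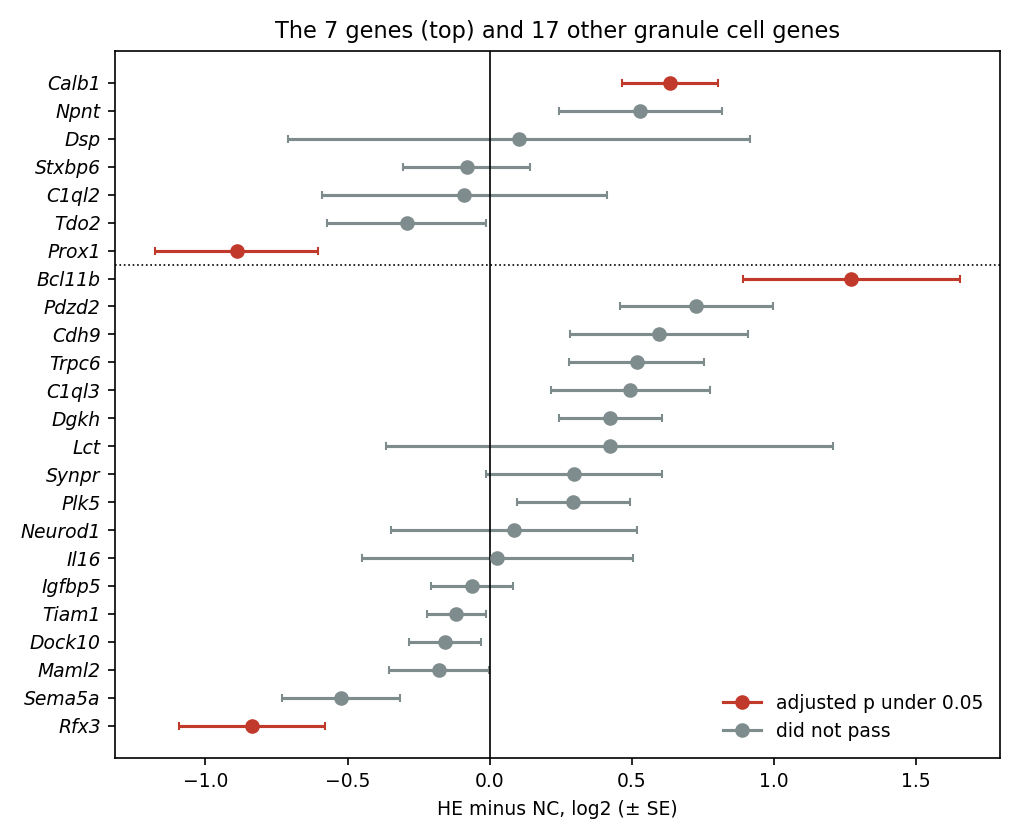
Log2 difference of HE minus NC ± SE, 1 probe per gene, for the 7 genes (top) and 17 other genes known from granule cells (below the dotted line), in red where the adjusted p was under 0.05. Bcl11b, at 1.273, and Rfx3, at -0.836, passed among the 17.

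Of 18 other granule cell genes, 17 were measured. Bcl11b rose, Rfx3 fell, 15 did not pass, and the median was 0.295. This median was -0.071 without HE 4, -0.042 with the mean of a gene's probes, 0.019 under normexp and 0.507 with array median scaling. Bcl11b, a zinc finger transcription factor of granule and CA1 cells, was 2.554, 2.345, 3.719, 2.005 and 3.238 on HE 1 to HE 5, against 2.354, 1.535, 1.681, 1.366 and 0.562 on NC 1 to NC 5 (adjusted p = 0.0376). The arrays HE 3 and HE 5 were highest, NC 5 was lowest, and the groups overlapped. Rfx3, a transcription factor of cilia genes, fell by 0.836 ± 0.258 SE (adjusted p = 0.0421), and Pdzd2, a PDZ-domain protein, differed by 0.728 without passing (adjusted p = 0.0746). The call of 2 became 0 without HE 1, HE 3, NC 2 or NC 5, with slide as a fixed block, on slide 2 alone, with the thalamic covariate and on the high Xist arrays. It was 5 under normexp. With the mean of a gene's probes it stayed at 2, but both calls were lower in HE, so that the rise of Bcl11b was no longer called. With replicate number as a block, or without NC 3 or HE 5, no gene was called as higher and 1 as lower.

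Of 12 measured genes of immature granule cells and progenitors, 1 rose, and their median was -0.0369. Sox4, a transcription factor of young neurons, rose by 0.674 ± 0.179 SE (adjusted p = 0.0258). Igfbpl1 had -3.058 ± 0.518 in HE and -4.137 ± 0.757 in NC (adjusted p = 0.0581), and Dcx (doublecortin, of migrating young neurons) had -0.248 ± 0.41 in HE and -0.363 ± 0.165 in NC (adjusted p = 0.684). Of 6 genes of mossy cells, the hilar neurons next to granule cells, Ajap1 rose by 0.383, and of 12 genes of CA2 and CA3, Elavl2 fell by 0.826. Among other tissues a dissection could hold, 7 of 10 myelin genes and 3 of 10 endothelial and pericyte genes fell. None of 6 choroid plexus genes and none of 8 meningeal genes passed. Their means overlapped between the groups, at -2.215 to 1.249 in HE and -2.05 to 1.659 in NC for choroid plexus, and at -1.018 to 0.192 in HE and -1.286 to 1.312 in NC for meninges. The part of these tissues in the values of the 7 genes was not tested.

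**Figure D5:**
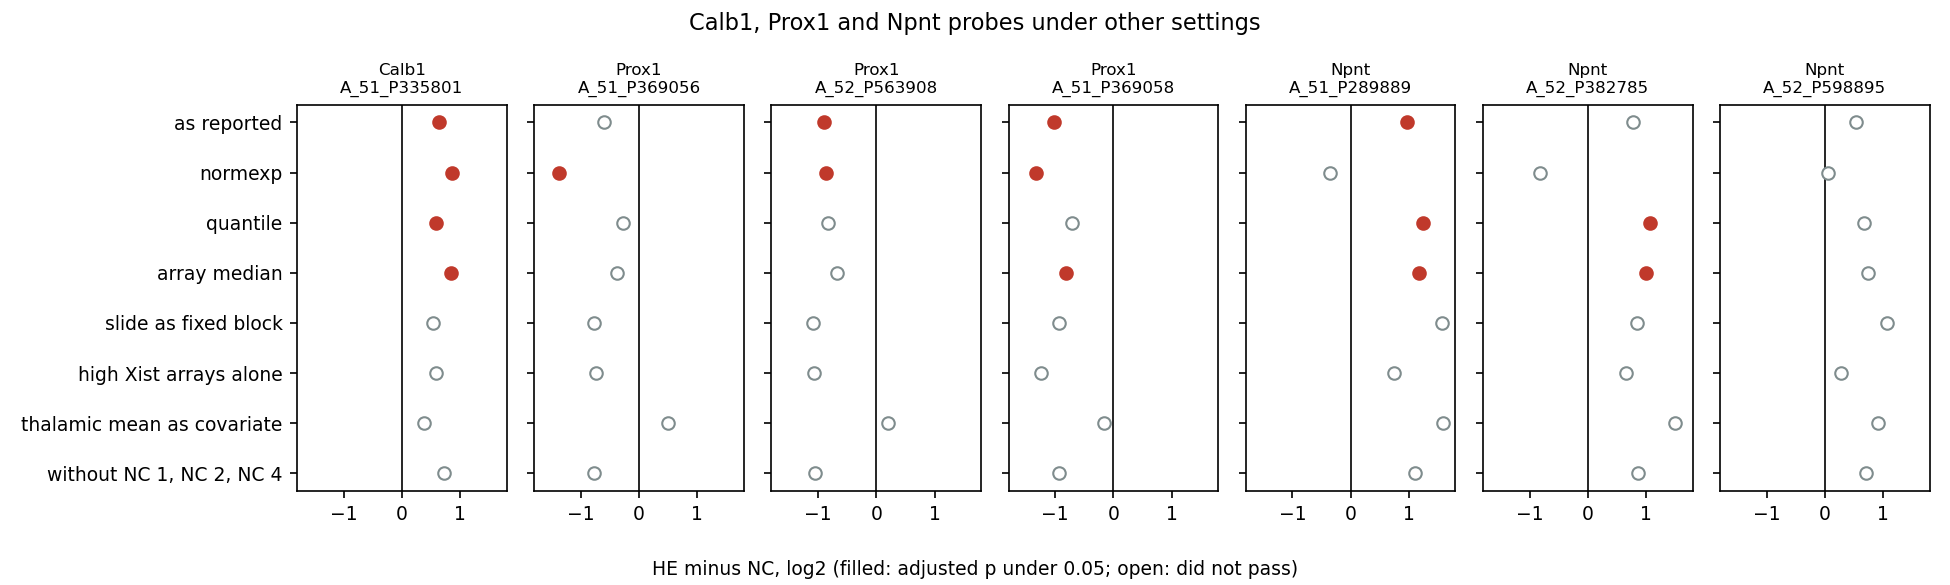
Log2 difference of HE minus NC for the Calb1, Prox1 and Npnt probes as reported and under 7 other settings, filled where the adjusted p was under 0.05. Calb1 stays between 0.381 and 0.86 in all of them, while 2 Npnt probes are below 0 under normexp and 2 Prox1 probes are above 0 with the thalamic mean as a covariate.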

How the data were processed

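Hippocampal RNA was read on 1-colour Agilent arrays. The submitters' processing notes name Agilent Feature Extraction 10.7. The deposited intensity is linear and, per the file headers, had background and spatial trend removed and surrogates put in near background, with no scaling between arrays. The authors also deposited a table of log2 values without stating how it was made. Differences between its columns had a slope of 1.002 on those of quantile-normalized signals.

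Spots marked as outliers were left out, 68 to 129 per array, which took at most 2 of the 10 Calb1 spots of an array and no other member spot. Saturated spots numbered 0. Repeat spots were averaged on the log2 scale and the array's 75th percentile was subtracted. A probe was tested if well above background on at least 3 arrays of 1 group. Probes were named through RefSeq (GRCm38.p6): 27668 by accession, 5589 by symbol and 471 by synonym, and 7446 remained under the files' name. Positions are the files' own, on mm9, and sequences are the probes' in the files. The fit used 10 arrays and no covariate in limma 3.58.1 (R 4.3.3), with lmFit, eBayes and two-sided p-values adjusted over all 30981 probes. The test was tested on simulated data.

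The 7 genes and the other lists were chosen with earlier results of these data known. Besides the members, the genes named are those with the smallest p in each list, up to 3, and the 3 with the profile closest to each member's. C1ql3, Dcx, Alb, Lct, Il16, Six3, Tac2, Hey2 and the probes whose sequences are printed were picked outside this rule, after values were seen. The result of 1 gene of the lists is not reported here. The alternatives were 4 other scalings or value tables, other filters and ways of joining probes, slide or replicate number as a block, a trend with a robust prior, the Xist pattern (read from the data) as a covariate or its high arrays alone, the thalamic mean as a covariate, and leaving out arrays.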

Additional observations from a re-analysis of the deposited data

Results flagged for a closer look

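Among 24 groups of 5 values, 1 held an array that stood apart by Dixon's test: the Prox1 probe that joins exons read -3.498 on NC 4, against -4.116 to -3.967 on the other NC arrays. Chance gives about 1 such group in 20. Without NC 4 the log2 difference of this probe was -0.911 and did not pass.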

How the results depend on the processing

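Called member probes numbered 4, and called member genes 2. The probe count was 2 with no filter on dim probes and 0 with slide as a fixed block, on slide 2 alone, on the high Xist arrays, with the thalamic mean as a covariate and without NC 1, NC 2 and NC 4 (at an unadjusted p under 0.05, limma gave 1, 5, 4, 2 and 3). The gene count was 1 after quantile normalization, with array median scaling, in the deposited value table, without the filter, and with 1 probe or the mean of probes per gene, and 0 in the same 5 fits as above (0, 3, 2, 0 and 2 unadjusted). Slide 2 holds a single NC array, taken to vary like the others, and 0 of all probes passed there. Leaving out each array in turn gave 0 to 4 probes and 0 to 2 genes, with 0 for both without HE 5 or NC 5 (5 probes and 2 genes unadjusted in each). Over all probes, 7172 were called as reported, 250 with slide as a fixed block, 103 on the high Xist arrays and 14373 under normexp. The share of higher calls was 33.3%, but 16.2% under normexp, 48.4% after quantile normalization, 48.7% in the value table and 65.9% with array median scaling. The median of all probes was -0.055, against -0.418 under normexp and 0.157 with array median scaling.

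Members that did not pass changed sign under some settings. C1ql2 was 0.123 with array median scaling, 0.213 in the value table, 0.212 after quantile normalization, 0.149 on slide 2 alone and with slide as a block, 0.347 with the thalamic covariate, 0.496 without NC 1, NC 2 and NC 4, and -0.368 to 0.332 with 1 array left out. Stxbp6 was 0.131, 0.038, 0.036, 0.123, 0.123 and 0.381 under the first 6 of these and -0.23 to 0.037 with 1 array left out. Tdo2 was 0.079 in the value table and after quantile normalization, 0.19 on slide 2 alone and with slide as a block, and 0.096 without NC 1, NC 2 and NC 4, and it passed under normexp (-1.348). The Dsp probes were -0.49 and -0.434 on the high Xist arrays, -0.61 and -0.896 under normexp, and -0.463 to 0.476 and -0.311 to 0.815 with 1 array left out. Under normexp 2 Npnt probes were -0.358 and -0.814, and with the thalamic covariate 2 Prox1 probes were 0.494 and 0.193. Relative to the median of all probes, C1ql2 (-0.034) and Stxbp6 (-0.027) had the same values with array median scaling as in the main fit. Those 2 sign changes were thus a shift of the zero point. The cause of the others was not tested.

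With the replicate number as a block, the member counts were again 4 and 2, and 5796 probes were called in all. The numbers did not pair the arrays: correlations of deviations between arrays of 1 number were -0.068 to 0.153, and 3 of 10 arrays correlated best with their own number.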
